A study of Mus musculus with 2 samples.

Results

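C1q-low inflammatory monocytes of a mouse tumour were profiled here from single-cell RNA sequencing of J558 allografts. The cells were selected on measured UMI counts (unique molecular identifiers, which count single transcripts), so the genes of the selection rule are given as a description. A barcode was a member with over 2000 genes, under 15% mitochondrial UMIs, at least 10 Lyz2 UMIs and at least 3 UMIs of Cd14, Fcgr1 and Tgfbi together. It also had fewer than 10 UMIs of C1qa, C1qb and C1qc together, fewer than 3 of Ace, Treml4 and Adgre4, fewer than 2 of Flt3, fewer than 3 of the tumour gene Trap1a, and at most 1 of Cd3d, Cd3e and Cd3g. By this rule 713 of 6929 kept barcodes, out of 11123 barcodes in all, were members.

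J558, a plasmacytoma line of BALB/c origin, had been implanted under the skin of young, immunocompetent female BALB/c mice. One group received 0.5% methylcellulose by mouth as vehicle and the other TAK-931, an inhibitor of the DNA replication kinase CDC7, at 60 mg/kg once a day, and both were sampled on day 6. The dissociated whole tumour was sequenced with no sorting, and each group gave 1 library from 1 allograft. With 1 library per group there was no test, the treatment and the single animal cannot be told apart, and every interval below is a 95% interval that covers counting error only.

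Classical monocytes leave the bone marrow through the chemokine receptor CCR2, carry the surface protein Ly6C, and enter inflamed tissue and tumours, where many turn into macrophages or into cells that present antigen on MHC class II. C1q, a complement component, is made in quantity by mature tissue macrophages and hardly by blood monocytes, so its transcripts help to tell them apart. How long ago a member had entered the tumour was not measured. Interferon gamma from T and NK cells acts on monocytes and macrophages. In part through the transcription factor IRF1, it switches on GTPases of the GBP and IRG families and the genes of MHC class I presentation.

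Sequencing gave 144767193 UMIs over 4565 barcodes for vehicle and 77369283 UMIs over 6558 barcodes for TAK-931, of which 3441 and 3488 barcodes were kept. Of the kept vehicle barcodes 3000 were tumour cells, against 83 in the TAK-931 library. Both libraries shared 8 barcodes, none of them a vehicle member and 3 of them TAK-931 members. Immunoglobulin transcripts, which the tumour makes, took 0.167% of the UMIs of vehicle members and 0.0496% of those of TAK-931 members. Relative to their share of each whole library (10.5% and 1.50%), this put free RNA at 1.58% and 3.32% of the members' UMIs.

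C1q-low monocytes were 75 of 3441 kept barcodes in the vehicle library, a share of 2.18% (exact interval 1.72 to 2.72%), and 638 of 3488 in the TAK-931 library, a share of 18.3% (17.0 to 19.6%). The difference of 16.1 percentage points (Newcombe interval 14.8 to 17.5) was measured beside a tumour cell share of 87.2% and 2.38%, and shares of one sample sum to 100. Counted among Lyz2-high myeloid barcodes, which met the rule without its limits on C1q and on Ace, Treml4 and Adgre4, the members were 75 of 182 (41.2%, 34.0 to 48.7%) and 638 of 1884 (33.9%, 31.7 to 36.1%), so that their share was 7.34 points lower in the TAK-931 library, an interval of -14.9 to -0.115. This difference depended on the rule. It was -10.7 points (-17.5 to -4.00) with a limit of 1000 genes, -1.68 points (-10.6 to 7.26) with the rule applied to UMIs thinned to 4000 per cell, and -3.09 points (-11.7 to 5.39) with barcodes bearing NK, B, endothelial, fibroblast or mural markers removed. C1q-high macrophages, which met the rule but for 10 or more C1q UMIs, numbered 88 and 1045.

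Members of the TAK-931 library were deeper, with a median of 12754.5 UMIs and 3004 genes against 8314 UMIs and 2384 genes in the vehicle library. Their summed UMIs were 8865191 and 663448, so the vehicle sum limited the precision of each ratio. The members' C1q UMIs differed as well. In the vehicle library 63 of 75 members had no C1q UMI, and in the TAK-931 library 188 of 638 had none and the median was 1. Just inside the C1q limit, at 8 or 9 UMIs, were 2 vehicle and 12 TAK-931 cells, and just outside, at 10 or 11, were 0 and 7. In the TAK-931 library the cells just inside held 2002 CPM of Ly6c2 (CPM, counts of UMIs scaled to the same total for each set of summed cells) and 4146 CPM of Apoe, and those just outside 1179 and 4624 CPM.

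**Figure D1:**
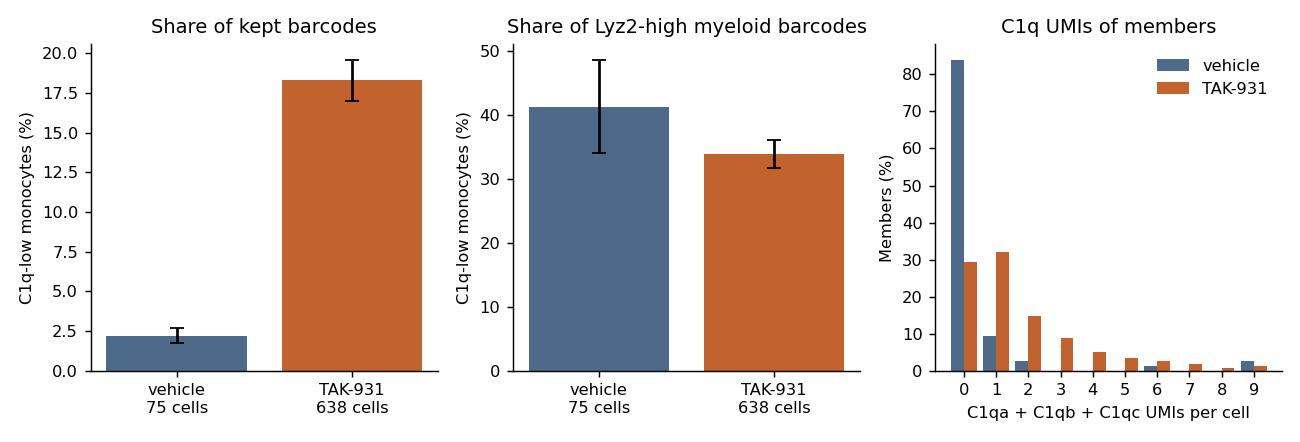
Share of C1q-low monocytes among kept barcodes (left, %) and among Lyz2-high myeloid barcodes (middle, %), with exact 95% intervals, and the distribution of summed C1qa, C1qb and C1qc UMIs over the members of each library (right, % of members). The TAK-931 bar is the higher one on the left (18.3% against 2.18%) and the lower one in the middle (33.9% against 41.2%).

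The 6 genes that mark this population were all present. Of these, Il1rn, the interleukin 1 receptor antagonist, and Ms4a6c, a membrane protein of monocytes, were not part of the rule. Ms4a6c stood at 1165 CPM in vehicle and 611 CPM in TAK-931 members, against 12.0 and 253 CPM in the other kept barcodes. Il1rn stood at 225 and 468 CPM against 2.29 and 93.6 CPM. Of the genes the rule used, Lyz2, the lysozyme of myeloid cells, had 6285 and 8576 CPM, Cd14, the endotoxin co-receptor, 1173 and 1110 CPM, Fcgr1, the high-affinity IgG receptor, 392 and 567 CPM, and Tgfbi, a secreted matrix protein, 1067 and 486 CPM.

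Markers of other lineages were at low summed levels, in part from single cells and in part spread over many. With barcodes bearing at least 2 UMIs of NK, B, endothelial, fibroblast and mural genes removed, the alternative called removal of other lineages' markers in what follows, 69 of 75 vehicle and 458 of 638 TAK-931 members were left. Of 9 neutrophil genes, 5 were at 0 in vehicle members (Ly6g, Retnlg, Mmp9, Camp and Ngp) and 2 in TAK-931 members (Camp and Ngp), and the list summed to 243 and 152 CPM, with 52.8% of the vehicle and 22.0% of the TAK-931 UMIs in 1 cell. In the TAK-931 library 191 of 638 members had at least 2 UMIs of this list. All 4 B cell genes and 6 of 7 T cell genes were at 0 in vehicle members, and in TAK-931 members these lists summed to 0.677 and 17.3 CPM. Fibroblast genes summed to 882 CPM in vehicle members, of which 99.3% came from 1 cell, and to 182 CPM in TAK-931 members, of which 83.6% came from 1 cell. NK cell genes summed to 1.51 and 37.0 CPM, with 53.4% of the TAK-931 UMIs in 1 cell. Conventional dendritic genes summed to 45.2 and 74.9 CPM and J558 genes to 140 and 149 CPM, with at least 2 J558 UMIs in 20 of 75 and 335 of 638 members. Eosinophil genes were at 0 and 0.451 CPM, mast cell and basophil genes at 3.01 and 13.5 CPM, endothelial genes at 28.6 and 103 CPM, mural genes at 128 and 22.7 CPM, plasmacytoid dendritic genes at 69.3 and 77.7 CPM, and non-classical monocyte genes at 140 and 110 CPM.

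Against C1q-high macrophages, the members carried the genes of blood monocytes, a contrast that the rule itself cut and that is given as a description. Of 4478 genes counted in both libraries, 118 (2.64%) were at least 2-fold higher in members in both libraries and 137 (3.06%) at least 2-fold lower. From the classical monocyte list of 15 genes, 12 were counted and all 12 were higher in both libraries, with median log2 ratios of 3.93 (vehicle) and 2.23 (TAK-931) where the median of all genes was -0.03 and 0.12. The macrophage list went the other way, with 13 of 18 counted genes lower in both libraries and 1 higher. This list holds C1qa, C1qb and C1qc, whose direction the rule set in advance.

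Genes farthest above C1q-high macrophages included Chil3 (log2 ratio 4.01 in vehicle, 3.03 in TAK-931), a chitinase-like protein of myeloid cells, and Hp, haptoglobin (4.22 and 2.91). Thbs1, thrombospondin (4.02 and 2.85), S100a4, a calcium-binding protein of motile cells (4.01 and 2.94), and Ltb4r1, the leukotriene B4 receptor (4.09 and 2.84), also belonged to them. S100a4 was not particular to myeloid cells, since T cells held 871 CPM in vehicle and 2606 CPM in TAK-931, against 1180 and 1169 CPM in members. F10, clotting factor X (2.91 and 2.70), Gpr141 (2.66 and 3.11) and Lsp1, a leukocyte actin-binding protein (2.57 and 2.57), completed the named genes.

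Apart from the 3 C1q genes of the rule, the genes farthest below C1q-high macrophages were Ccl8, a chemokine of tissue macrophages, Folr2, the folate receptor of resident macrophages, Igf1, a growth factor, Npl, a sialic acid enzyme, and Scamp5, a vesicle protein. Ccl8 was at 4.52 CPM (3 UMIs) in vehicle members against 2408 CPM in vehicle C1q-high macrophages, and at 224 CPM against 5572 CPM in the TAK-931 library. Folr2, Igf1, Npl and Scamp5 had between 1 and 3 UMIs in vehicle members and between 11 and 47 in TAK-931 members.

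Against all other kept barcodes, 467 of 12335 genes (3.79%) were at least 2-fold higher in members of both libraries and 1237 (10.0%) at least 2-fold lower. The vehicle comparison was mostly one of monocytes with tumour cells and the TAK-931 comparison one with macrophages and T cells. Named genes high in both were Ly6c2, which encodes Ly6C (log2 ratio 4.43 in vehicle and 2.44 in TAK-931), Ccr1, a chemokine receptor (6.50 and 2.53), Clec4e, a pattern recognition lectin (8.45 and 2.60), and Mefv, the inflammasome sensor pyrin (7.48 and 2.43). Chil3, F10, Gpr141, Hp, Ltb4r1 and Thbs1 were named here too, with ratios of 4.77 to 8.63 in vehicle and 2.49 to 3.78 in TAK-931.

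The nearest other myeloid cells in the TAK-931 library were 124 non-classical monocytes and 50 Flt3-positive cells, and in the vehicle library there were only 4 and 12. TAK-931 members held 1573 CPM of Ly6c2 against 641 CPM in non-classical monocytes and 739 CPM in Flt3-positive cells, and 312 CPM of Ccr2 against 146 and 191 CPM. They held less of the non-classical genes Cx3cr1, the fractalkine receptor (48.5 CPM against 153 in non-classical monocytes), and Itgal, an integrin chain (63.5 against 314 CPM). Against Flt3-positive cells, Ccr7, the lymph node homing receptor, was at 13.8 CPM against 332 CPM, while H2-Ab1, an MHC class II chain, was at 4870 against 4605 CPM.

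After each cell was thinned to 4000 UMIs, Ly6c2 was seen in 62.7% of vehicle members (exact interval 50.7 to 73.6%) and 90.0% of TAK-931 members (87.4 to 92.2%), against 68.0% and 95.5% before thinning. In T cells of the TAK-931 library, with a median depth of 13302 UMIs, the thinned share was 32.1%, and in vehicle T cells, of which there were 18 with a median of 16212.5 UMIs, it was 5.56%. Ccl8 and C1qa were near background in TAK-931 members. Ccl8 was seen in 33.2% of members against 25.5% of T cells, and C1qa in 14.7% against 10.8%, so these shares are not read as expression. Apoe, an apolipoprotein of macrophages, was seen in 86.7% of TAK-931 members against 42.2% of T cells, and in 96.0% of vehicle members against 11.1%.

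**Figure D2:**
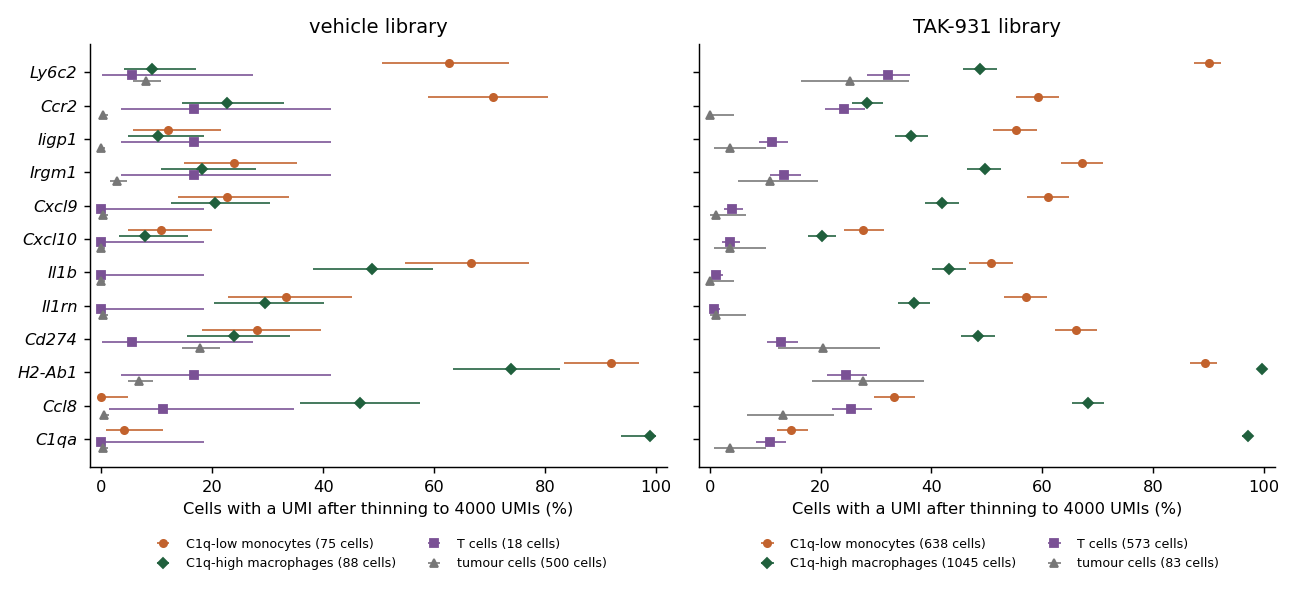
Share of cells with at least 1 UMI of each gene after thinning every cell to 4000 UMIs (x axis, %), with exact 95% intervals, in C1q-low monocytes, C1q-high macrophages, T cells and tumour cells (in the vehicle library 500 tumour cells were drawn) of each library. Ly6c2 lies highest in C1q-low monocytes in both libraries (62.7% and 90.0%), and Ccl8 and C1qa in TAK-931 members (33.2% and 14.7%) lie near T cells (25.5% and 10.8%).

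Between the libraries, TAK-931 members had higher levels of most interferon gamma-induced GTPases and regulators (11 of 15 past 2-fold), of Cxcl10 and Ccl2 and of 5 of 16 MHC class I genes, and lower levels of Cx3cr1, Trem2 and Fn1 than vehicle members. A gene was counted when the members of both libraries together held 50 or more of its UMIs. Of 8237 such genes, 880 (10.7%) were at least 2-fold higher in TAK-931 members and 295 (3.58%) at least 2-fold lower, and the median log2 ratio was 0.10 (-0.07 over the 1920 genes with that many UMIs in each sum). Because the TAK-931 sum was the larger one, many of these genes had few vehicle UMIs, and the counts depended on the minimum. With 200 UMIs they were 311 and 86, and with 10 UMIs 1144 and 1428, so that lower genes then outnumbered higher ones. In members with no C1q UMI they were 429 and 147.

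Of the 10 named genes that were highest in TAK-931 members, 3 rested on more than 10 vehicle UMIs. Ly6a, a surface protein that interferons induce, was at 51.2 CPM in 10 of 75 vehicle members and at 722 CPM in 483 of 638 TAK-931 members, a log2 ratio of 3.82 (3.33 to 4.35), and 1 vehicle cell held 32.4% of the vehicle UMIs. After thinning, Ly6a was seen in 9 and 386 members. Iigp1, an immunity-related GTPase, was at 49.7 and 433 CPM (3.12, 2.63 to 3.66). Acod1, the mitochondrial enzyme that makes itaconate, was at 16.6 and 141 CPM (3.09, 2.24 to 4.09). In C1q-high macrophages of the same libraries, which share the animals, Ly6a had a log2 ratio of 7.21 from 3.77 CPM in vehicle, Iigp1 was at 51.3 and 216 CPM, and Acod1 at 3.02 and 54.5 CPM.

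The other 7 had 1 or 2 vehicle UMIs and correspondingly wide intervals. Edn1, endothelin, had 1 vehicle UMI and 289 TAK-931 UMIs in 71 cells (log2 ratio 4.43, 1.95 to 9.74). Tnfaip6, a hyaluronan-binding protein, had 1 and 190 UMIs (3.83, 1.33 to 9.14), and Gclc, which makes glutathione, had 2 and 228 UMIs (3.09, 1.22 to 6.15). Stambpl1, Il15ra, Csprs and Tnfsf9 had 1 vehicle UMI each and between 104 and 127 TAK-931 UMIs.

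The 10 named genes lowest in TAK-931 members had 51 to 257 vehicle UMIs, since the rule for named genes asked for at least 50 UMIs in the higher sum. Igfbp6, an insulin-like growth factor binding protein, was at 76.9 CPM in vehicle and 6.43 CPM in TAK-931 members (log2 ratio -3.58, -4.15 to -3.01). Fdps, an enzyme of cholesterol synthesis, was at 93.5 and 10.2 CPM (-3.20, -3.69 to -2.71). Gpr183, the oxysterol receptor, was at 225 and 59.2 CPM (-1.92, -2.19 to -1.65). Itgb5, Anxa3 and the membrane proteins Tmem176a and Tmem176b had log2 ratios between -1.78 and -1.58, and Ccl24, an eosinophil chemokine, -2.30.

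Cx3cr1, which marks monocytes that patrol or mature in tissue, was at 166 CPM in 39 of 75 vehicle members and at 48.5 CPM in 175 of 638 TAK-931 members (-1.77, -2.08 to -1.46). After thinning, Cx3cr1 was seen in 26 and 93 members. Trem2, a lipid receptor of tissue macrophages, was at 102 and 30.3 CPM (-1.76, -2.14 to -1.35). C1q-high macrophages held 325 and 90.2 CPM of Cx3cr1 and 361 and 194 CPM of Trem2, so both genes were lower in the TAK-931 library in both populations.

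**Figure D3:**
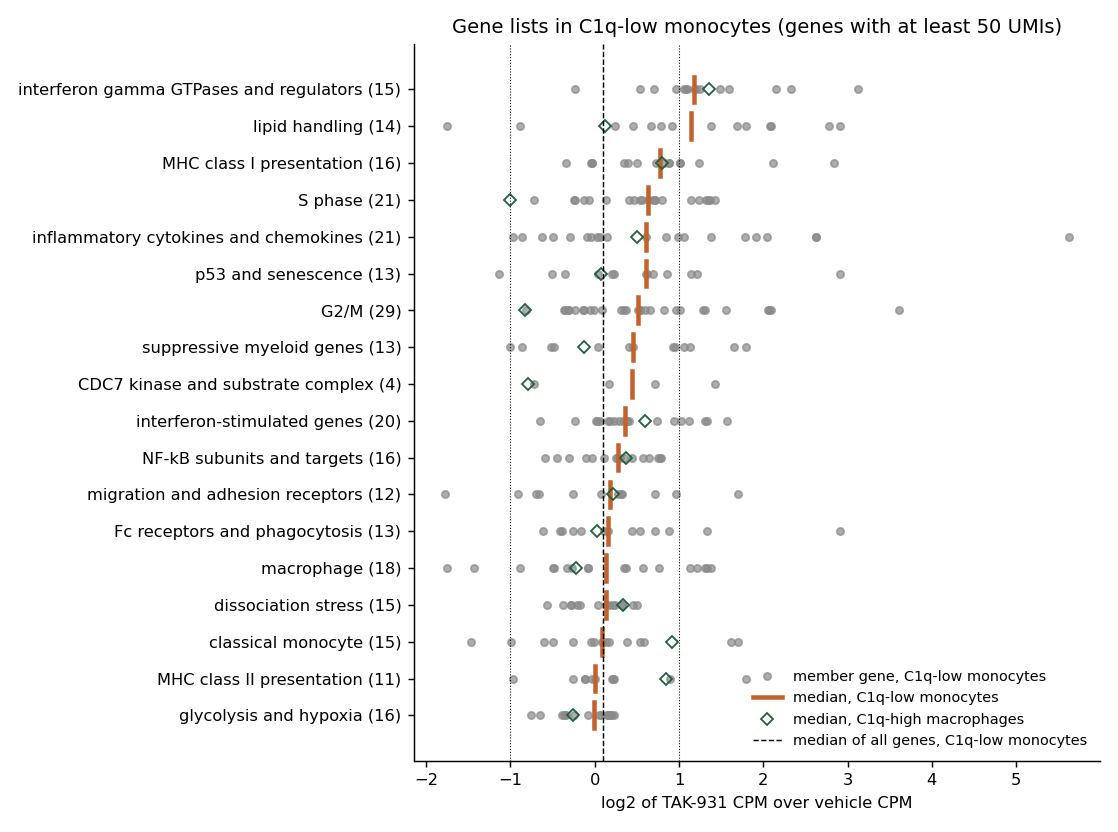
log2 ratio of TAK-931 over vehicle CPM (x axis) for each gene with at least 50 UMIs in C1q-low monocytes (grey points), by gene list, with the list median in C1q-low monocytes (orange bar) and in C1q-high macrophages (green diamond). The dashed line is the median of all genes in members (0.10) and the dotted lines mark 2-fold. The interferon gamma and lipid handling lists have the highest medians (1.17 and 1.14), and the S phase list, whose median in C1q-low monocytes depends on the setting, has medians of 0.63 and, in C1q-high macrophages, -1.01.

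The interferon gamma list of GTPases and regulators and lipid handling had the highest medians of the 18 lists, in an order that turned under 2 other settings, and with other lineages' markers removed the interferon-stimulated list (0.9936) lay above lipid handling (0.9403). Of 15 interferon gamma genes, 11 were at least 2-fold higher in TAK-931 members and none lower, with a median log2 ratio of 1.17, and they summed to 1108 CPM in vehicle and 2841 CPM in TAK-931 members. Irgm1, a GTPase that controls other IRG proteins, was at 91.9 CPM in vehicle and 407 CPM in TAK-931 members (2.15, 1.78 to 2.54). Gbp6, a guanylate-binding protein, was at 16.6 and 83.4 CPM (2.33, 1.48 to 3.34), and Igtp at 48.2 and 145 CPM (1.59, 1.08 to 2.14). Irf1, a transcription factor of the interferon response, was at 79.9 and 180 CPM (1.17, 0.78 to 1.60). Irf8, a transcription factor of the monocyte lineage, was at 170 and 406 CPM (1.25, 0.98 to 1.53), and Socs1, a feedback inhibitor, at 51.2 and 107 CPM (1.06, 0.56 to 1.60).

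The receptor chains had log2 ratios under 1. Ifngr1 was at 127 and 107 CPM (-0.24, -0.56 to 0.10) and Ifngr2 at 116 and 190 CPM (0.71, 0.38 to 1.06). Thinned to the same depth, Irgm1 was seen in 24.0% of vehicle members (14.9 to 35.3%) and 67.2% of TAK-931 members (63.4 to 70.9%), and Iigp1 in 12.0% (5.64 to 21.6%) and 55.2% (51.2 to 59.1%). Before thinning the shares were 42.7% and 87.9% for Irgm1 and 17.3% and 70.5% for Iigp1. In T cells the thinned shares were 16.7% and 13.4% for Irgm1 and 16.7% and 11.3% for Iigp1. The vehicle T cell value rested on 3 of 18 cells for each gene (3.58 to 41.4%), too few to place the vehicle members against it. In tumour cells Irgm1 stood at 2.80% (vehicle, 1.54 to 4.65%) and 10.8% (TAK-931), and Iigp1 at 0% (vehicle, 0 to 0.735%) and 3.61% (TAK-931). The shares of vehicle members thus lay above those of vehicle tumour cells. Those of TAK-931 members lay well above both T cells and tumour cells of their library. In C1q-high macrophages 9 of 15 genes of the list were 2-fold higher, with a median of 1.36. Of 10023 genes counted in these macrophages, 949 (9.47%) were 2-fold higher and 834 (8.32%) 2-fold lower in the TAK-931 library, with a median of -0.07.

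In the wider list of interferon-stimulated genes, which type I interferon also induces, 5 of 20 genes counted were 2-fold higher and none lower. The median log2 ratio was 0.36, and it was 0.99 with barcodes bearing other lineages' markers removed and 0.75 with the rule applied to thinned UMIs. The 5 genes were Ifi47, an IRG-family GTPase (118 and 350 CPM, 1.57, 1.25 to 1.92), Stat2, a signal transducer of type I interferon (21.1 and 53.2 CPM), and the antiviral oligoadenylate synthetase family genes Oasl1 (78.4 and 195 CPM), Oasl2 (61.8 and 126 CPM) and Oas2 (9.04 and 19.6 CPM).

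Several classical antiviral genes had intervals that spanned 0. Isg15, a ubiquitin-like protein, was at 630 and 644 CPM (0.03, -0.11 to 0.18), Ifi44 at 317 and 320 CPM (0.02, -0.19 to 0.23), and Ifit3 at 40.7 and 34.6 CPM (-0.23, -0.80 to 0.39). Ifit1 and Ifit2 had log2 ratios of 0.16 and 0.23 with intervals that also held 0. In vehicle members Ifit3 was found in 5 of 75 cells, whereas Isg15 was found in 54, and 1 cell held 17.5% of its UMIs. After thinning, Isg15 was seen in 43 of 75 vehicle and 470 of 638 TAK-931 members, with a median of 1 and 2 UMIs. The sum of the interferon-stimulated list had a median of 7 and 15 UMIs per thinned cell, with up to 129 and 110 in 1 cell. Counted per cell, the list was thus higher in TAK-931 members.

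Promoters of interferon-induced genes hold short elements bound by interferon-activated factors, and 3 genes of these lists with large ratios and a match are printed here to show these letters. Each sequence is the 250 bases before the gene's start in RefSeq on GRCm38.p6, 5′ to 3′ on the gene's strand. Capitals mark TTTCNNTTT, the core of the interferon-stimulated response element, or TTCNNNGAA, the gamma-activated site, on either strand.
Irgm1, chr11:48871421-48871670, minus strand: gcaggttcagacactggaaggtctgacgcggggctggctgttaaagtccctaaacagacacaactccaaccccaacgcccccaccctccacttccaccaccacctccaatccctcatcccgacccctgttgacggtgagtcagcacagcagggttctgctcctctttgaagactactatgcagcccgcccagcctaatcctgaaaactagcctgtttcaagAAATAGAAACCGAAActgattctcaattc
Igtp, chr11:58199306-58199555, plus strand: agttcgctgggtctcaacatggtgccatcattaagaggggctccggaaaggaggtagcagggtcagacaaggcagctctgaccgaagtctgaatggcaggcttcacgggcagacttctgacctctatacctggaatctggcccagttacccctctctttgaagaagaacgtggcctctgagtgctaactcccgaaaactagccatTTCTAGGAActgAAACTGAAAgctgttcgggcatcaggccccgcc
Ifi47, chr11:49076337-49076586, plus strand: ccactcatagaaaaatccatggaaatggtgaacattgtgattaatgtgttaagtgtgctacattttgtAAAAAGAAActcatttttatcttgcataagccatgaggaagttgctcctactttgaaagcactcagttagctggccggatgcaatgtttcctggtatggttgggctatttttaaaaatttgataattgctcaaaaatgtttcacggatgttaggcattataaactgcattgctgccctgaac
In the Irgm1 promoter 2 overlapping matches of TTTCNNTTT ended 15 bases before the start, and the Igtp promoter held 1 match of each motif. Of 12 interferon gamma list genes with a promoter in the table, 8 held TTTCNNTTT and 6 held TTCNNNGAA, against 11 and 3 of 15 interferon-stimulated genes. Over all 27025 genes of the table the shares were 10.8% and 8.13%. The matches describe letters and were not tested for binding.

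In MHC class I presentation 12 of 16 genes had log2 ratios above 0 in TAK-931 members. Of the 16 genes, 5 were at least 2-fold higher and none lower, with a median log2 ratio of 0.78, and the list summed to 8751 CPM in vehicle and 14871 CPM in TAK-931 members. H2-D1, a classical heavy chain, was at 2059 and 4158 CPM (1.01, 0.94 to 1.09). B2m, the shared light chain, was at 2626 and 4854 CPM (0.89, 0.82 to 0.96). Per cell, thinned to 4000 UMIs, H2-D1 had a median of 7 UMIs in vehicle members (range 1 to 25) and 16 in TAK-931 members (range 1 to 60), and every member of both libraries had at least 1.

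The peptide transporter Tap1 was at 96.5 and 227 CPM (1.23, 0.87 to 1.61), H2-Q7 at 42.2 and 182 CPM (2.11, 1.57 to 2.71) and Nlrc5, the transactivator of class I genes, at 6.03 and 43.0 CPM (2.83, 1.47 to 4.72). H2-Q genes are near copies of one another, so how reads were divided among them is uncertain. Psmb10, Psme1 and Psme2, parts of the immunoproteasome, had intervals that held 0. C1q-high macrophages had 7 of 16 genes 2-fold higher and a median of 0.80.

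The sum of MHC class II transcripts differed little between the libraries in members, at 28219 and 29043 CPM, while single genes went both ways. Of 11 genes, 6 had log2 ratios above 0, 1 was 2-fold higher and none lower. The log2 ratios ran from -0.97 to 1.80, with a median of 0.00. H2-Ab1 was at 4856 and 4870 CPM (0.00, -0.05 to 0.06), H2-Aa at 5334 and 6152 CPM (0.21, 0.16 to 0.26) and Cd74, the invariant chain, at 9425 and 9212 CPM (-0.03, -0.07 to 0.00). Ciita, the transactivator of class II genes, was at 36.2 and 67.1 CPM (0.89, 0.30 to 1.55). In C1q-high macrophages H2-Ab1 was at 2481 and 6668 CPM and the list median was 0.84, with 5 of 10 counted genes 2-fold higher, and the difference between both populations was not tested.

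**Figure D4:**
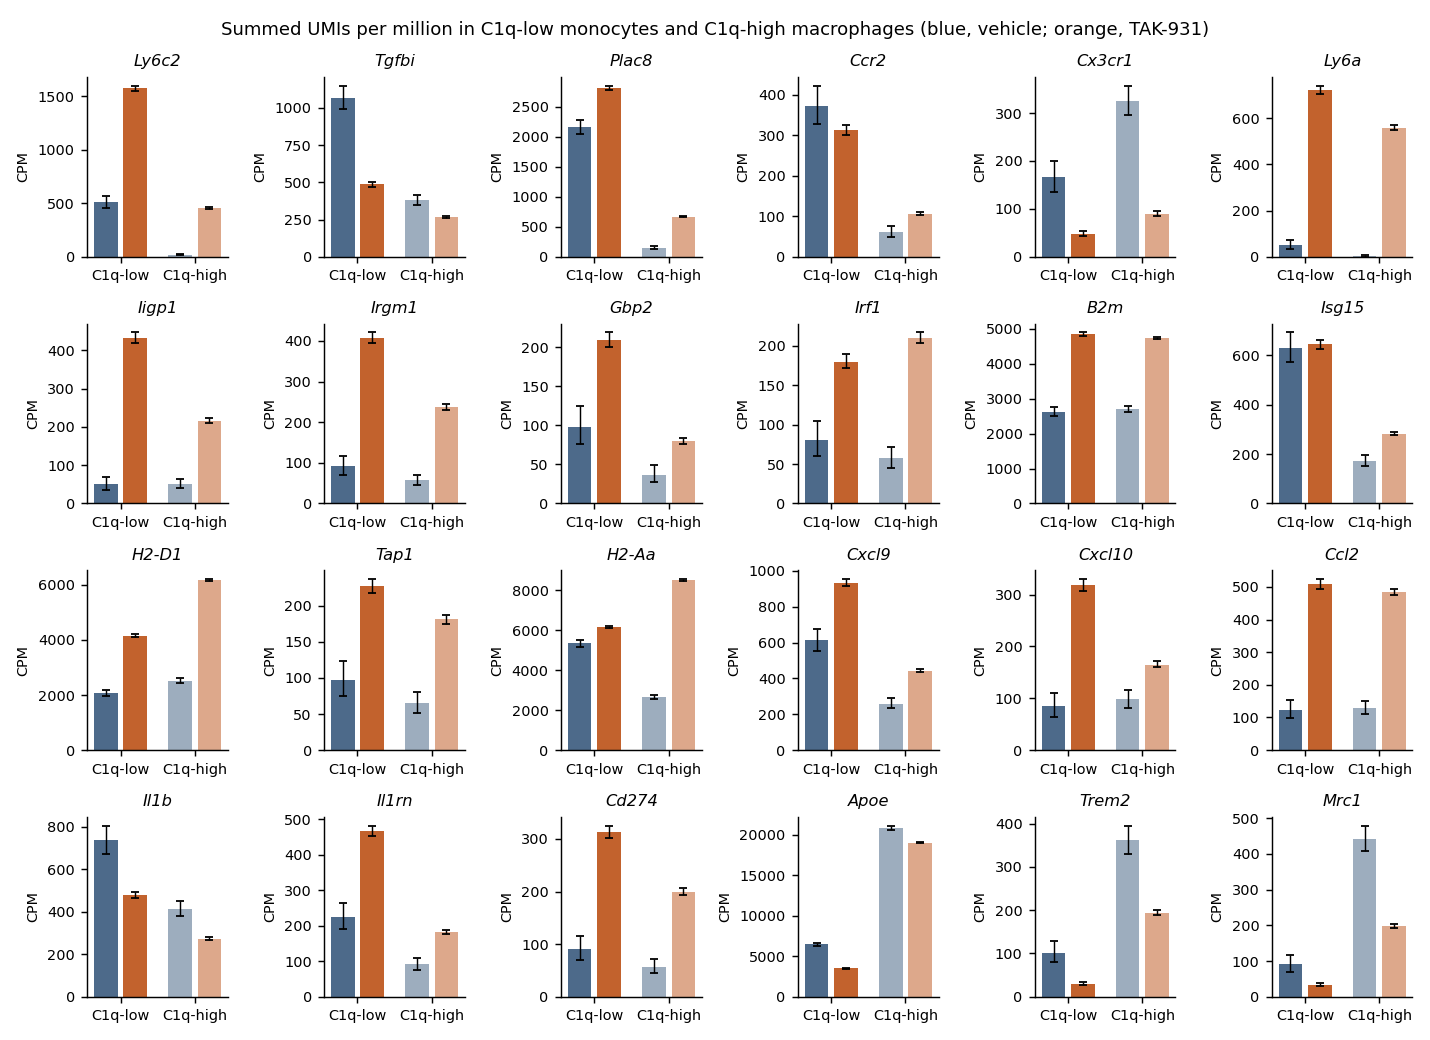
Level (y axis, CPM of the summed UMIs, each panel with its own scale) of 24 genes in C1q-low monocytes (solid bars) and C1q-high macrophages (pale bars) of the vehicle (blue) and TAK-931 (orange) libraries, with exact Poisson 95% intervals for counting error. Iigp1, Irgm1, H2-D1 and Cd274 are higher in TAK-931 in both populations, and H2-Aa is close in C1q-low monocytes (5334 and 6152 CPM) and apart in C1q-high macrophages.

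Cytokines and chemokines divided into those that were higher in TAK-931 members and those that were not. Of 21 genes counted, 8 were at least 2-fold higher and none lower, with a median log2 ratio of 0.61. The 8 include Ccl5 and Ccl8, for which the part of free RNA was not tested. Among the ligands of CXCR3, which attract T and NK cells, Cxcl10 was at 84.4 and 318 CPM (1.92, 1.53 to 2.32), and Cxcl9 at 612 and 935 CPM (0.61, 0.47 to 0.76). In vehicle members 1 cell held 25.6% of the Cxcl9 UMIs, and fewer cells carried the gene. After thinning, Cxcl9 was seen in 22.7% of vehicle members (13.8 to 33.8%) and 61.1% of TAK-931 members (57.2 to 64.9%), against 26.7% and 74.5% before thinning, with up to 34 and 48 UMIs in 1 cell, while T cells showed it in 0 of 18 vehicle cells, which allows a share of up to 18.5%, and in 4.01% of TAK-931 cells.

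Ccl2, the ligand of CCR2, was at 124 CPM in 11 of 75 vehicle members and at 509 CPM in 423 of 638 TAK-931 members (2.04, 1.73 to 2.37). After thinning, Ccl2 was seen in 9 and 308 members. Ccl7, which shares that receptor, was at 27.1 and 168 CPM (2.63, 1.96 to 3.39), with 94.4% of the vehicle UMIs in 1 cell. Ccl3 and Ccl4, chemokines of activated macrophages, had log2 ratios of 1.78 and 1.38. Ccl5 was at 78.4 and 485 CPM (2.63, 2.23 to 3.05), with 65.4% of the vehicle UMIs in 1 cell. T cells held 2912 and 4732 CPM of it, and the part of free RNA in the members' level was not tested. Ccl8 had 3 vehicle UMIs and 1984 TAK-931 UMIs (5.63, 4.08 to 7.91), and its level in TAK-931 T cells was 102 CPM against 224 CPM in members. Ccl2 and Ccl12 are close paralogs, and reads may have been split between them.

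Il1b, the interleukin 1 beta gene, was at 737 CPM in vehicle and 477 CPM in TAK-931 members (-0.63, -0.76 to -0.49), and was seen in 66.7% (54.8 to 77.1%) and 50.8% (46.8 to 54.7%) of thinned members and 76.0% and 66.6% of unthinned ones. Il1rn, its antagonist, was at 225 and 468 CPM (1.06, 0.82 to 1.30) and was seen in 33.3% (22.9 to 45.2%) and 57.1% (53.1 to 60.9%), or 57.3% and 75.7% before thinning, against 0.698% of T cells in the TAK-931 library. The ligand and its antagonist thus lay in opposite directions. Tnf was at 79.9 and 158 CPM (0.98, 0.59 to 1.41), Osm, oncostatin M, at 190 and 135 CPM (-0.49, -0.76 to -0.22), and Il10, an anti-inflammatory cytokine, at 40.7 and 22.3 CPM (-0.87, -1.45 to -0.23).

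The neutrophil chemokine Cxcl2 was at 3298 and 3096 CPM (-0.09, -0.15 to -0.03), and Cxcl1 at 298 and 243 CPM (-0.30, -0.51 to -0.08). Il6 and Il12b had 1 and 0 vehicle UMIs and 41 and 12 TAK-931 UMIs. In C1q-high macrophages the list had 6 of 21 genes 2-fold higher and 5 lower, with a median of 0.50.

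Classical monocyte genes did not share one direction. Of 15 genes, 2 were 2-fold higher and 1 was lower, with a median log2 ratio of 0.09 that was below 0 under 3 other settings. Ly6c2 was at 512 CPM in vehicle and 1573 CPM in TAK-931 members (1.62, 1.46 to 1.78), with a median of 1 and 6 UMIs per thinned cell. Fn1, fibronectin, was at 440 and 159 CPM (-1.47, -1.66 to -1.29). Plac8, a gene of immature myeloid cells, was at 2164 and 2816 CPM (0.38, 0.30 to 0.46), Ccr2 at 372 and 312 CPM (-0.25, -0.44 to -0.06) and Hp at 182 and 91.7 CPM (-0.99, -1.27 to -0.70). In C1q-high macrophages all 15 genes lay above 0, 6 of them past 2-fold, with a median of 0.91.

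Among 12 migration and adhesion receptors, 1 was 2-fold higher and 1, Cx3cr1, 2-fold lower, and the median log2 ratio was 0.18. Itgam, the integrin chain CD11b, was at 229 and 122 CPM (-0.91, -1.16 to -0.66), and Itgal at 102 and 63.5 CPM (-0.69, -1.06 to -0.31). Ccr1 and Itgb2, the integrin chain CD18, had log2 ratios of 0.32 and 0.31.

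Of 18 macrophage genes, 5 were 2-fold higher in TAK-931 members and 2 lower, with a median log2 ratio of 0.14 that was -0.30 with free RNA subtracted and -0.074 from 200 UMIs. The list's sum lay the other way, at 11344 and 8665 CPM. The 5 higher genes were C1qa, C1qb, C1qc, Mertk and Gpnmb, each at 3 to 14 vehicle UMIs, and the C1q genes are those the rule capped. The lower genes were Trem2 and Mrc1, the mannose receptor, at 91.9 and 34.2 CPM (-1.43, -1.83 to -1.01). Apoe was at 6475 CPM in vehicle and 3516 CPM in TAK-931 members (-0.88, -0.93 to -0.83), with a median of 21 UMIs per thinned vehicle cell and 5 per thinned TAK-931 cell. The lysosomal proteases Ctsb and Ctsd had log2 ratios of 0.38 and 0.76.

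Lipid handling genes were more often higher. Of 14 genes, 7 were 2-fold higher and 1, Trem2, was lower, with a median log2 ratio of 1.14. The sum of the list, which holds Apoe, was 9972 CPM in vehicle and 9413 CPM in TAK-931 members. The cholesterol exporters Abca1 (21.1 and 90.0 CPM, 2.09, 1.34 to 2.97) and Abcg1 (69.3 and 240 CPM, 1.79, 1.37 to 2.25) were among them. Cd36, a fatty acid and oxidised lipid receptor, was at 9.04 and 68.0 CPM (2.91, 1.78 to 4.36), Lpl, lipoprotein lipase, at 15.1 and 104 CPM (2.79, 1.90 to 3.85), and Fabp5, a fatty acid carrier, at 112 and 360 CPM (1.69, 1.36 to 2.04). Fabp4 rested on 3 vehicle cells, 1 of which held 85.7% of its UMIs. C1q-high macrophages had 1 of 14 genes 2-fold higher and a median of 0.12.

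Of 13 genes linked to suppressive myeloid cells, 4 were 2-fold higher and 1 lower, with a median of 0.45. Cd274, the checkpoint ligand PD-L1, was at 90.4 CPM in vehicle and 313 CPM in TAK-931 members (1.79, 1.42 to 2.18), and in thinned cells it was seen in 28.0% (18.2 to 39.6%) and 66.1% (62.3 to 69.8%), or 37.3% and 90.6% before thinning. T cells showed it in 5.56% and 12.9%, and tumour cells in 17.8% and 20.5%. Ptgs2, cyclooxygenase, was at 145 and 301 CPM (1.06, 0.76 to 1.37), and Tgfb1, a suppressive cytokine, at 505 and 252 CPM (interval of the log2 ratio -1.17 to -0.83). Pdcd1lg2, another ligand of the same checkpoint, rested on 3 vehicle UMIs.

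Nos2 and Ido1 were rare. Nos2, inducible nitric oxide synthase, had no UMI in vehicle members and 126 UMIs in 39 TAK-931 members, which is at least 3.14-fold higher against a floor of 3 counts. Ido1, which breaks down tryptophan, had 0 and 1 UMIs.

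Of 13 Fc receptor and phagocytosis genes, 2 were 2-fold higher (Cd36 and Mertk), none was lower, and the median was 0.15. Fcgr4, an activating IgG receptor that interferon gamma induces, was at 223 and 366 CPM (0.71, 0.48 to 0.96), and Fcgr2b, the inhibitory one, at 448 and 343 CPM (-0.38, -0.56 to -0.21). Clec4d, a lectin that recognises mycobacterial lipid, was at 143 and 264 CPM (0.88, 0.59 to 1.19).

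The next 3 lists had no gene past 2-fold in either direction. The NF-kB list of 16 genes had a median of 0.28, with log2 ratios from -0.59 for Bcl2a1b, a survival gene with near copies, to 0.79 for Traf1, a signalling adaptor. The glycolysis and hypoxia list of 16 genes had a median of -0.01. The list of 15 genes induced by tissue dissociation, such as Fos and Jun, had a median of 0.13, while its sum was 9583 and 9122 CPM.

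Cell cycle genes were at low levels in members. The S phase list summed to 552 and 681 CPM and the G2/M list to 996 and 1231 CPM, with 6 of 21 and 8 of 29 counted genes 2-fold higher and none lower. Each of these had 8 or fewer vehicle UMIs. Mki67, a marker of dividing cells, had 1 vehicle UMI and 163 TAK-931 UMIs, and was seen in 3.29% of thinned TAK-931 members (2.05 to 4.99%) against 29.7% of T cells. Fen1, a DNA repair and replication nuclease, was at 12.1 and 30.7 CPM (1.35, 0.35 to 2.57). The members' medians were 0.63 and 0.51. The first was 0.067 from 10 UMIs and 0.24 for the mean of cell CPM, and the latter was -0.23 with other lineages' markers removed and -0.0083 from 200 UMIs. In C1q-high macrophages the medians were -1.01 and -0.82, with 18 of 34 and 18 of 46 genes 2-fold lower.

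CDC7 itself, the target of TAK-931, had no UMI in vehicle members and 27 in TAK-931 members, which at this depth gives no direction. Dbf4, its activating subunit, was at 24.1 and 27.2 CPM (0.17, -0.56 to 1.00), and the helicase subunits Mcm2, Mcm4 and Mcm6 had intervals that held 0. Of 4 genes counted in this complex 1, Mcm6, was 2-fold higher. Of 13 p53 and senescence genes, 3 were 2-fold higher and 1 lower, with a median of 0.61 that was 0.23 from 200 UMIs. Cdkn1a, the cell cycle inhibitor p21, was at 674 and 690 CPM (0.04, -0.10 to 0.18), Mdm2 at 333 and 511 CPM (0.62, 0.42 to 0.82), and Plk2, with 7 vehicle UMIs, at 10.6 and 79.5 CPM (2.91, 1.86 to 4.23).

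Within each library the members were not uniform. Cells with more classical monocyte transcripts tended to have fewer of MHC class II. Across thinned cells the sums of both lists had a Spearman rho of -0.42 over 75 vehicle cells and -0.57 over 638 TAK-931 cells, which share library and depth. The classical monocyte sum ranged from 3 to 103 UMIs (median 34) in vehicle and from 0 to 130 (median 38.5) in TAK-931 members, and the MHC class II sum from 7 to 246 (median 120) and from 4 to 391 (median 102.5).

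**Figure D5:**
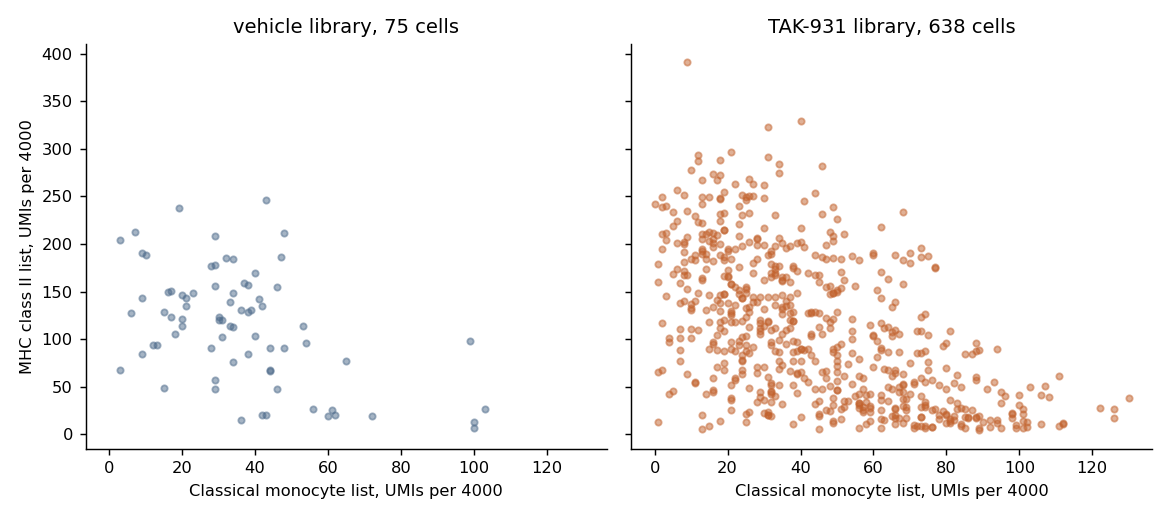
Summed UMIs of the classical monocyte list (x axis) and of the MHC class II list (y axis) in each C1q-low monocyte thinned to 4000 UMIs, in the vehicle library (75 cells) and the TAK-931 library (638 cells). The sums are negatively correlated in both panels (rho -0.42 and -0.57), with exceptions among cells of high classical monocyte sum.

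In the top quartile of the classical monocyte sum (164 TAK-931 cells with at least 64 UMIs), H2-Aa was at 2293 CPM, against 8758 CPM in the bottom quartile (164 cells with at most 22 UMIs). In the top quartile 25 of 164 TAK-931 cells and 3 of 20 vehicle cells lay above their library's MHC class II median. These quartiles are ranges of 1 score, and 36 and 48 of 638 TAK-931 members and 9 and 7 of 75 vehicle members lay within 2 UMIs of the upper and lower limits. Apoe was at 1742 CPM in the top and 7546 CPM in the bottom quartile, and Tnf at 104 and 218 CPM. Iigp1, in contrast, was at 627 CPM in the top and 230 CPM in the bottom quartile, and Cxcl9 at 1221 and 698 CPM. The 20 vehicle cells of each quartile had the same order for H2-Aa (3000 CPM in the top, 6725 CPM in the bottom), Apoe (3788 and 8700 CPM) and Isg15 (1375 and 450 CPM, against 773 and 386 CPM in TAK-931), whereas Cxcl9 was at 438 and 475 CPM and Tnf had 7 UMIs in the top and 6 in the bottom quartile, too few to give an order.

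Across cells of a library, interferon-stimulated and interferon gamma lists had a rho of 0.43 in vehicle and 0.42 in TAK-931 members, and the classical monocyte and interferon-stimulated lists 0.25 and 0.43. The classical monocyte and interferon gamma lists had the weaker values of 0.17 and 0.25. The cytokine list had a rho of 0.47 and 0.46 with the NF-kB list and of 0.29 and 0.41 with the dissociation list, whose part in the cytokine levels was not tested.

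Genes that varied most from cell to cell, by the ratio of variance to mean over thinned cells, were Cxcl2, Cxcl9, Fth1, Apoe and Lyz2 in vehicle members, and Apoe, Cxcl2, Fth1, Spp1 and Ccl5 in TAK-931 members. Spp1, osteopontin, was seen in 21.9% of thinned TAK-931 members, with up to 79 UMIs in 1 cell. Saa3, an acute phase protein, was seen in 7.52%, with up to 32 UMIs, and S100a8, a neutrophil and early monocyte gene, in 9.40%, with up to 26 UMIs. Ctla2a, Igfbp7 and Sparc ranked near them, seen in 4.70%, 6.43% and 4.86%, with up to 24, 25 and 17 UMIs. Whether such cells carried RNA of other cell types was not tested. Each of these stood high in a small part of the cells.

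TAK-931 members with more C1q UMIs were not the same as those with none, though C1q was part of the rule. In the TAK-931 library, the 188 cells with 0, the 356 cells with 1 to 3 and the 94 cells with 4 to 9 C1q UMIs held 2573, 3527 and 5133 CPM of Apoe. Ccl8 was at 79.5, 142 and 784 CPM and Ccr2 at 386, 297 and 241 CPM in the same order. Ly6c2 differed less, at 1736, 1524 and 1468 CPM. Iigp1 was at 478, 457 and 262 CPM. The MHC class I sum was close in the 3 ranges, at 14778, 14919 and 14856 CPM. Median depth was 11823, 12991.5 and 13400 UMIs, and the part of depth and of free RNA was not tested. In the vehicle library the ranges held 63, 9 and 3 cells and gave no such order. Apoe was at 6877, 4074 and 7100 CPM there, and Ly6c2 at 511, 351 and 1211 CPM.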

How the data were processed

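Single-cell suspensions of the J558 allografts, 1 per group, were made into libraries with 10x Genomics 3′ chemistry (version 3.1). The deposited matrices hold raw UMI counts per gene and barcode, which the authors produced with Cell Ranger 6.0.0 on mm10 per the submitters' processing notes, with no normalization. The gene and mitochondrial limits are those of the study's methods. No doublet caller was run here, and barcodes with markers of other lineages were removed only as an alternative.

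Members, gene lists and comparisons were chosen with earlier results of these data known. Members' UMIs were summed per library and scaled to CPM of that sum, and log2 ratios carry exact conditional binomial intervals. A gene was counted from 50 UMIs (both sums together), and past 2-fold was the call. Where a count was 0, a floor of 3 counts was used. Shares carry Clopper-Pearson intervals, differences of shares Newcombe intervals, and CPM Poisson intervals. For shares, cells were thinned to 4000 UMIs. A 3′ UMI count is not scaled to gene length, so levels are compared within a gene.

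T cells had at least 2 Cd3 UMIs, under 3 of Trap1a and none of Cd14, Fcgr1 or Tgfbi. Tumour cells had at least 3 of Trap1a, under 10 of Lyz2 and at most 1 of Cd3. Free RNA was estimated from immunoglobulin and J chain UMIs. The rule for named genes took the 10 highest and the 10 lowest ratios of TAK-931 to vehicle, the 8 on each side against C1q-high macrophages and the 10 highest against other barcodes. They needed at least 50 UMIs in the higher sum, a UMI in at least 10% of its cells, under 20% of its UMIs in 1 cell and a CPM no lower than in other barcodes. Genes of the rule, markers and leading list genes were added, and other genes were named after their values were seen. Some listed genes are not reported here. Mitochondrial, ribosomal, haemoglobin and immunoglobulin genes and 38 duplicated symbols were left out. Promoters came from RefSeq (GRCm38.p6). Software was scipy 1.17.1, numpy 2.4.6, pandas 2.3.3 and matplotlib 3.10.9 under python 3.11.15, and the steps were tested on simulated data. Alternatives are given in the closing section.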

Additional observations from a re-analysis of the deposited data

How the results depend on the processing

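Over all alternatives, 355 values of counts, medians and shares stayed within the counting interval of the reported value or near the reported count, 32 did not, and 3 turned sign against an interval that excluded 0. Of the named genes' ratios 336 stayed within their interval and 4 did not. The interval of a list median was taken from the middle gene or genes of the list, so its width depended on those genes. It ran from -0.0475 to 0.0562 for MHC class II and from -1.11 to 2.83 for G2/M. Some values inside a wide interval differed in sign or size, and small shifts fell outside a narrow one. The cause was not tested.

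The classical monocyte median turned sign, at -0.072 with a limit of 1000 genes, -0.11 with the rule applied to thinned UMIs and -0.012 without the 10 members with most UMIs. It was 0.18 with barcodes bearing other lineages' markers removed and 0.37 in members with no C1q UMI. The difference in the share of kept barcodes was 13.2 points with 1000 genes, 14.4 with under 5 C1q UMIs and 11.1 with other lineages' markers removed. The cytokine median was 0.81 with under 5 C1q UMIs, 0.82 with at most 3, 0.89 with none, 0.44 with the thinned rule and 0.78 with 5 Lyz2 UMIs. The MHC class II median was -0.0795 with the thinned rule, -0.056 with 5 Lyz2 UMIs, -0.0719 with other lineages removed, -0.0721 for the mean of cell CPM, 0.074 with median ratio scaling, -0.051 without immunoglobulin, mitochondrial and ribosomal UMIs, -0.18 with no C1q and -0.079 without the 10 deepest members. The macrophage median was 0.59 without those 10, -0.30 with free RNA subtracted, -0.074 from 200 UMIs and -0.34 with no C1q. The G2/M median was -0.23 with other lineages removed, -0.0083 from 200 UMIs, 0.013 for the mean of cell CPM and 0.085 with the thinned rule, and the CDC7 complex median was -0.22 with other lineages removed and -0.42 with no C1q. The S phase median was 0.067 from 10 UMIs, 0.24 for the mean of cell CPM, 0.26 with the thinned rule and 0.34 without those 10, and the p53 median 0.23 with 5 Lyz2 UMIs and from 200 UMIs, and 0.37 with 1000 genes. The glycolysis median lay between -0.16 and 0.10, that of dissociation between 0.061 and 0.20 and that of Fc receptors between 0.098 and 0.34. The lowest medians of migration receptors, suppressive genes and the NF-kB list were 0.074, 0.22 and 0.093. The interferon-stimulated median was 0.99 with other lineages removed and 0.75 with the thinned rule. Lipid handling had a higher median than the interferon gamma list with a mitochondrial limit of 10% (1.1626 against 1.1335) and with under 5 C1q UMIs (1.1615 against 1.1612). The difference in the share of myeloid barcodes was -10.7 points with 1000 genes, -8.99 (-16.5 to -1.85) with under 5 C1q UMIs, -1.68 points with the thinned rule, -3.09 with other lineages removed, -6.84 (-14.4 to 0.439) with a mitochondrial limit of 10% and -5.33 (-12.9 to 1.91) with under 20 C1q UMIs.

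With the thinned rule 75 genes lay above and 88 below C1q-high macrophages in both libraries. Between libraries, 311 genes were higher and 86 lower from 200 UMIs, 1144 higher and 1428 lower from 10 UMIs, and 429 higher and 147 lower in members with no C1q. Share differences were -8.69 points for Cd14 and -31.9 for Ms4a6c at 2000 UMIs. Unthinned, they were -9.50 for Tgfbi, -3.40 for Ms4a6c, 47.8 for Cxcl9 and 30.3 for Cxcl10.

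The settings with C1q at 0, without the 10 deepest members and without barcodes found in both libraries were chosen after seeing the data. No paired analysis was possible because each group has 1 library. Precision is limited by the 75 vehicle members, and the intervals do not cover variation between animals.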
